A study of Homo sapiens with 6 samples.

Results

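The YAP-TEAD module was followed through 10 genes that were fixed by name: the coactivators YAP1 and WWTR1 (which encodes TAZ), the DNA-binding factors TEAD1 and TEAD4, the inhibitory kinases LATS1 and LATS2, and the target genes AMOTL2, ANKRD1, CCN1 (older symbol CYR61) and CCN2 (older symbol CTGF). All 10 were found by symbol among the 63241 Ensembl genes of the count files, and all 10 passed the filter on low counts. MDA-MB-231, a mesenchymal-like human triple-negative breast cancer line labelled wild type, was treated for 24 h with 5 μM nitidine chloride (NCD), a natural plant alkaloid, or with 0.1% DMSO as the vehicle. RNA-seq was available for 3 libraries per group, and expected counts estimated with RSEM were compared. The comparison asks what 24 h of NCD does to the transcriptome of these cells.

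In the Hippo pathway, a kinase cascade that ends in LATS1 and LATS2 phosphorylates YAP and TAZ, which keeps them in the cytoplasm and marks them for degradation. Unphosphorylated YAP and TAZ enter the nucleus and bind TEAD factors, since neither can bind DNA alone. Together they drive genes for matrix signalling, adhesion and growth, with CCN1, CCN2 and ANKRD1 among those most often read as their output. AMOTL2 and LATS2 are targets as well as inhibitors, which closes a feedback loop. MDA-MB-231 is widely used in studies of YAP and TAZ because it lacks functional NF2, an upstream activator of the kinases.

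TEAD factors recognise a short element, the MCAT motif GGAATG, and the windows are shown because they give the letters that a TEAD factor could read near the members' starts. The CCN2 window is the 250 bases before the RefSeq start of the gene (GRCh38.p14, chr6:131951373-131951622, minus strand), written 5′ to 3′ on the strand of the gene, with each GGAATG in capitals.
CCN2: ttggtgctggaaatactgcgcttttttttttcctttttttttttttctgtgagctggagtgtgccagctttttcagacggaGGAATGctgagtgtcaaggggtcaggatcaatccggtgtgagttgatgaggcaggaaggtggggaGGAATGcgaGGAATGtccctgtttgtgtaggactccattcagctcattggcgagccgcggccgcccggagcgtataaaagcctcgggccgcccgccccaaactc
The 3 matches of CCN2 began 169, 104 and 95 bases before the start. Stretches of 30 bases around the matches of ANKRD1 (chr10:90921290-90921319 and chr10:90921198-90921227, minus strand), YAP1 (chr11:102110273-102110302, plus strand) and AMOTL2 (chr3:134374499-134374528, minus strand) follow, with the motif in capitals. In AMOTL2 it lay on the opposite strand and reads CATTCC.
ANKRD1 first match: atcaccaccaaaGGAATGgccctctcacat
ANKRD1 second match: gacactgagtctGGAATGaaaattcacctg
YAP1: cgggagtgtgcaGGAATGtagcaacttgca
AMOTL2: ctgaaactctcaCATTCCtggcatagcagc
GGAATG, searched on both strands, occurred in the 250 bases before the start of 11.9% of 35116 RefSeq promoter entries, and 0.0826% held at least 3 matches as CCN2 did. The AP-1 motif TGANTCA, also searched on both strands, occurred in 6.57% of the entries, in ANKRD1 once (195 bases before the start) and in 1 of the 2 entries of LATS1. No match to GGAATG was found in these windows for WWTR1, LATS1 or LATS2, or in the other entry of AMOTL2. TEAD1, TEAD4 and CCN1 were not searched. RefSeq and GENCODE place some of these starts differently. The second ANKRD1 stretch, the AMOTL2 stretch and both WWTR1 windows lie inside the GENCODE spans given for these genes below. So does the LATS1 window without the AP-1 match. The other LATS1 window and the other AMOTL2 window lie partly inside. A match of letters is a description of the window and was not tied to any binding measurement.

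The libraries held 18223594 to 19410833 counts with DMSO and 18232169 to 21629653 with NCD. The markers of the line were present, with VIM, CD44, KRT8, KRT18 and EGFR summing to 4887 to 5161 CPM (counts per 1000000 library counts, TMM-scaled) with DMSO and 3772 to 4207 CPM with NCD. VIM was the largest part of the sum, at 3056 CPM with DMSO and 2638 CPM with NCD. The 5 markers did not move together. CD44 (977 to 277 CPM, log2 fold change -1.82) and EGFR (170 to 27.9 CPM, -2.61) were called lower by the criteria below. KRT8 (0.53) and KRT18 (0.27) rose and VIM (-0.21) fell, all below the fold threshold. ESR1 and PGR stayed below 0.3 CPM on average in both groups and ERBB2 was at 37.2 ± 1.76 CPM with DMSO and 61 ± 2.32 CPM with NCD (SD, n = 3 each; log2 fold change 0.71, edgeR adjusted p = 1.92e-05), below the fold threshold. The 5 markers that are low or absent in the line summed to 38.2 to 41.4 CPM with DMSO and 62.7 to 66.6 CPM with NCD. Of 5 leukocyte markers, CD68 alone made up nearly all of a summed 81.4 to 95.4 CPM, and the 3 endothelial markers summed to at most 1.39 CPM. The 5 fibroblast markers summed to 4.13 to 5.31 CPM with DMSO and 18.5 to 19.9 CPM with NCD, from COL1A1 and PDGFRB, while COL1A2 was at 0 in every library. The part of these markers in the results was not tested. For NCD replicates 2 and 3 the free-text label carries a cell line number that differs from the cell line field. Without both libraries 5 members were called lower and none higher, but this fit holds a single NCD library that is assumed to vary like the DMSO libraries, so it does not check the spread under NCD.

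A gene was called changed at a Benjamini-Hochberg adjusted p below 0.05 in edgeR's quasi-likelihood test, taken over all 15295 tested genes, together with a change of more than 1 on the log2 scale. Under these criteria 5 of the 10 members were lower with NCD (YAP1, WWTR1, TEAD1, CCN1 and CCN2) and 0 were higher. Among all tested genes 31% were called in either direction, 17.5% lower and 13.5% higher. The median log2 fold change was -0.83 over the 10 members and 0.04 over all tested genes. Without a fold threshold 7 members were lower and 1 higher, where 69.3% of all tested genes passed in either direction. The CPM of the 2 groups did not overlap in 8 members, as in 72.6% of all tested genes. Of these 8, 1 was higher and 7 lower with NCD, against 37.3% and 35.3% of all tested genes. In these bulk samples fewer cells and less RNA per cell cannot be told apart, and the values are shares of each library. The labels do not say whether libraries of a group came from separate cultures, so the p-values measure the spread between these libraries, which may be technical.

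**Figure D1:**
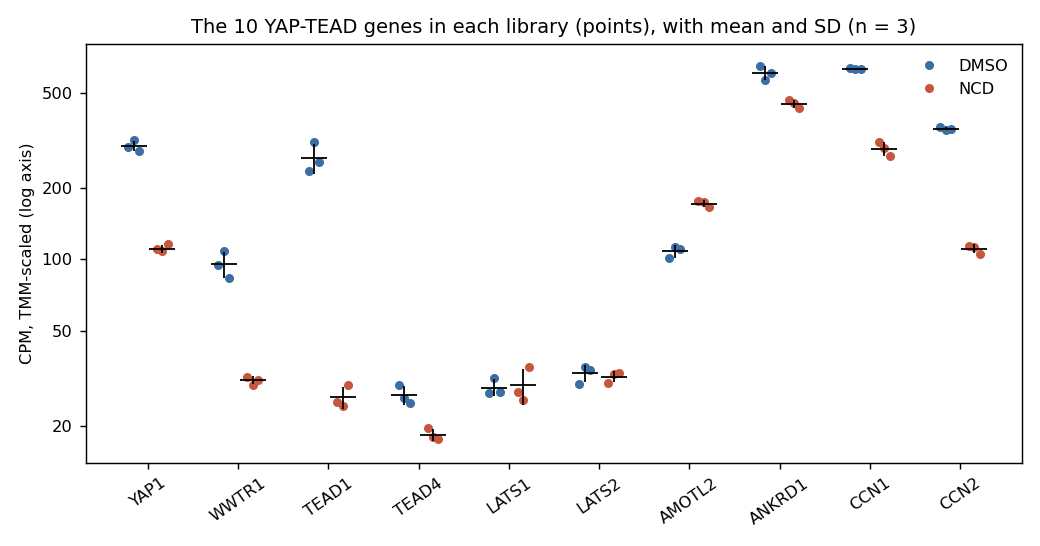
TMM-scaled CPM (log axis) of the 10 genes in the 3 DMSO libraries (blue) and 3 NCD libraries (red), with black bars for the mean and SD. TEAD1 shows the widest gap between the groups (267 against 26.4 CPM), AMOTL2 is the only gene whose NCD points all lie above its DMSO points, and LATS1 and LATS2 overlap.

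Both coactivators fell with NCD. YAP1 (ENSG00000137693; chromosome 11, 102110461 to 102233423, plus strand, GENCODE release 29, GRCh38), the main transcriptional effector of the pathway, was counted 4903, 5564 and 5221 times in the vehicle libraries and 2520, 2090 and 2492 times under NCD. Every NCD library held fewer YAP1 counts than any DMSO library. Its level fell from 299 ± 14.6 CPM to 111 ± 4.2 CPM (SD, n = 3 each), a log2 fold change of -1.42 ± 0.06 (SE; edgeR adjusted p = 1.17e-07). WWTR1 (ENSG00000018408; chromosome 3, 149517235 to 149736714, minus strand), the gene of the YAP paralogue TAZ, was counted 1578, 1900 and 1526 times in the vehicle libraries and 735, 575 and 672 times under NCD. The groups stood well apart in this gene too, at 95.4 ± 11.9 CPM with DMSO and 31.1 ± 1.2 CPM with NCD. The log2 fold change of WWTR1 was -1.62 ± 0.10 (SE; edgeR adjusted p = 8.14e-07). Its antisense neighbour WWTR1-AS1 overlaps it and had at most 12.3 counts in any library, and the strandedness of the counting is not given in the sources used here.

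Within a library and per exonic length, the ratio of WWTR1 to YAP1 was 0.241, 0.256 and 0.219 with DMSO and 0.218, 0.206 and 0.202 with NCD. The groups did not overlap, but the mean log2 ratio differed by -0.19, and an exact two-sided permutation test gave p = 0.1 (adjusted p = 0.133 over 4 ratios). With 3 libraries against 3, 0.1 is the smallest p this test allows, so none of these ratios could pass 0.05.

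The TEAD genes diverged from each other. TEAD1 (ENSG00000187079; chromosome 11, 12674591 to 12944483, plus strand), the TEAD gene with the highest level in DMSO, was counted 3897, 5487 and 4688 times in the vehicle libraries and only 580, 469 and 635 times under NCD. The lowest DMSO library still held more than the NCD libraries put together. Its level fell 10.1-fold, from 267 ± 38.9 CPM to 26.4 ± 2.82 CPM (SD, n = 3 each; log2 fold change -3.34 ± 0.12 SE, edgeR adjusted p = 5.2e-08). This was the largest change among the 10 genes. TEAD4 (ENSG00000197905; chromosome 12, 2959330 to 3040673, plus strand), a paralogue with the same type of DNA-binding domain, was counted 491, 463 and 455 times in the vehicle libraries and 450, 347 and 379 times under NCD. Scaled for library size these were 26.9 ± 2.4 CPM and 18.4 ± 1.08 CPM, which did not overlap between the groups. The log2 fold change of TEAD4 was -0.54 ± 0.09 (SE; edgeR adjusted p = 0.000721), short of the fold threshold. It was -0.35 when libraries were scaled by their totals.

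The ratio of TEAD4 to TEAD1 therefore turned over. Per exonic length it was 0.571, 0.382 and 0.44 under DMSO and 3.51, 3.35 and 2.7 under NCD, a 6.92-fold difference that does not depend on how libraries are scaled (exact two-sided permutation test, p = 0.1, adjusted p = 0.133). The other family members, TEAD2 and TEAD3, stand on the list of pathway regulators. TEAD3 had 21.6 ± 0.768 CPM with DMSO and 54.3 ± 1.36 CPM with NCD (log2 fold change 1.33 ± 0.07 SE, edgeR adjusted p = 3.73e-07) and was called higher. TEAD2, at 12 ± 0.941 CPM and 15.9 ± 2.17 CPM, had a log2 fold change of 0.41 (edgeR adjusted p = 0.0168), below the fold threshold.

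The summed level of the 4 TEAD genes per exonic length was 49 ± 3.5 CPM per kb with DMSO and 33.9 ± 1.3 CPM per kb with NCD (SD, n = 3 each). TEAD1 made up 48.7%, 57% and 53.1% of this sum with DMSO and 7.03%, 6.94% and 8.86% in the NCD libraries. TEAD3 made up 15.7%, 13.5% and 14.5% with DMSO and 51.6%, 53.2% and 53.3% with NCD. The leading TEAD transcript was thus TEAD1 in every DMSO library and TEAD3 in every NCD library, while the share of TEAD4 was 24.3% ± 3.13 with DMSO and 23.9% ± 0.721 with NCD. These shares were computed after the values of the single genes had been seen, and they carry no test.

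**Figure D2:**
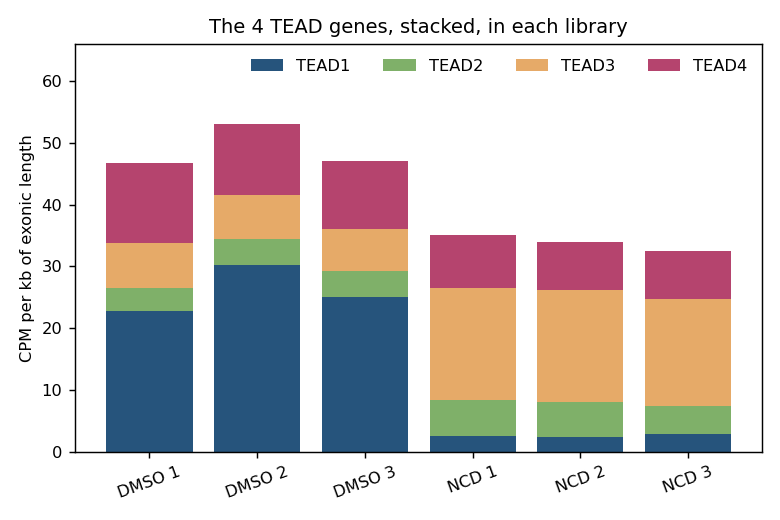
Stacked bars give the level of TEAD1, TEAD2, TEAD3 and TEAD4 in each of the 6 libraries, in CPM per kb of exonic length. TEAD1 (dark blue) is the tallest segment in every DMSO library and the shortest in every NCD library, and TEAD3 (orange) is the tallest with NCD.

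No change was detected in the LATS kinases, which phosphorylate YAP and TAZ. LATS1 (ENSG00000131023; chromosome 6, 149658153 to 149718256, minus strand) had 27.4, 31.8 and 27.9 CPM with DMSO and 27.9, 25.6 and 35.2 CPM in the NCD libraries. The NCD libraries surrounded the DMSO range, with replicate 3 the highest of the 6. Its log2 fold change was 0.03 (95% interval -0.26 to 0.31, edgeR adjusted p = 0.858), and it was -0.13 without NCD replicate 3. LATS2 (ENSG00000150457; chromosome 13, 20973032 to 21061547, minus strand), also a target gene of YAP and TAZ, had 30.1, 35.4 and 34.5 CPM with DMSO and 30.3, 33 and 33.5 CPM with NCD. These groups overlapped, with a log2 fold change of -0.05 (95% interval -0.25 to 0.15, edgeR adjusted p = 0.629), or 0.15 with library totals. Both intervals leave out a change of 2-fold in either direction. The ratio of LATS2 to LATS1 per exonic length averaged 1.78 with DMSO and 1.72 with NCD, and the exact permutation test gave p = 0.7.

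The 4 remaining target genes did not move as a block. CCN1 and CCN2 encode secreted matricellular proteins that bind integrins. CCN2 (ENSG00000118523; chromosome 6, 131948176 to 131951373, minus strand), whose window with 3 GGAATG matches is printed above, was counted 5956, 6153 and 6400 times in the vehicle libraries and 2616, 2176 and 2246 times under NCD. Every NCD library held fewer than the lowest DMSO library. In CPM this was 353 ± 5.62 against 111 ± 5.11 (SD, n = 3 each), a log2 fold change of -1.67 ± 0.06 (SE; edgeR adjusted p = 4.15e-08). CCN1 (ENSG00000142871; chromosome 1, 85580761 to 85583962, plus strand) was counted 10547, 11092 and 11513 times in the vehicle libraries and 7068, 5655 and 5804 times under NCD. It fell from 631 ± 4.02 CPM to 291 ± 19.2 CPM (log2 fold change -1.12 ± 0.06 SE, edgeR adjusted p = 6.36e-07). With library totals in place of TMM the log2 fold change of CCN1 was -0.92 (edgeR adjusted p = 1.45e-06), below the fold threshold. This scaling moved the median over all tested genes by 0.20 on the log2 scale and the share of called genes that were higher from 43.6% to 56.2%. CCN1 was thus reduced less than its paralogue: the ratio of CCN1 to CCN2 per exonic length was 1.69, 1.72 and 1.71 with DMSO and 2.57, 2.48 and 2.46 with NCD (exact two-sided permutation test, p = 0.1, adjusted p = 0.133).

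ANKRD1 (ENSG00000148677; chromosome 10, 90912096 to 90921276, minus strand), which encodes a nuclear and sarcomeric ankyrin repeat protein, was counted 10690, 10008 and 11069 times in the vehicle libraries and 10654, 8747 and 9225 times under NCD. Raw counts overlapped because NCD replicate 1 is the deepest library, whereas the CPM of the groups, 606 ± 39 and 449 ± 17.9, did not. Its log2 fold change was -0.43 ± 0.07 (SE; edgeR adjusted p = 0.000389), short of the fold threshold and smaller in size than those of CCN1 and CCN2. AMOTL2 (ENSG00000114019; chromosome 3, 134355874 to 134375479, minus strand), an angiomotin protein that holds YAP in the cytoplasm, was counted 1672, 2001 and 2020 times in the vehicle libraries and 4009, 3368 and 3531 times under NCD. All NCD libraries lay above all DMSO libraries, at 171 ± 5.84 CPM against 108 ± 6.59 CPM (SD, n = 3 each). The log2 fold change of AMOTL2 was 0.66 ± 0.06 (SE; edgeR adjusted p = 1.71e-05), also below the fold threshold, and it was positive in every fit that left out 1 library (0.59 to 0.69). AMOTL2 was the only member with a positive log2 fold change at an adjusted p below 0.05.

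**Figure D3:**
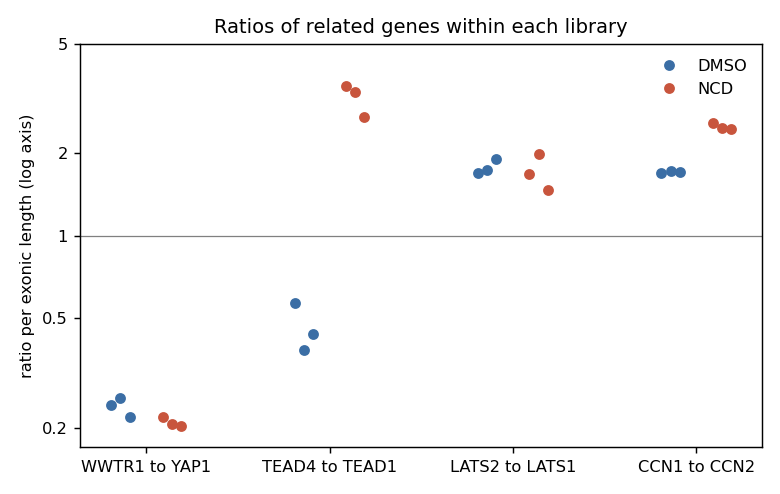
Ratio of related genes within each library, per exonic length (log axis), for 3 DMSO libraries (blue) and 3 NCD libraries (red), with a grey line at 1. TEAD4 to TEAD1 crosses the line, from at most 0.571 with DMSO to at least 2.7 with NCD, and CCN1 to CCN2 moves from about 1.71 to 2.5, while LATS2 to LATS1 overlaps.

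Levels of different genes were set in order per exonic length, in CPM per kb. With DMSO the order was ANKRD1 (306 ± 19.7), CCN1 (257 ± 1.64), CCN2 (151 ± 2.4), YAP1 (47.5 ± 2.32), TEAD1 (26 ± 3.78), AMOTL2 (18.1 ± 1.1), TEAD4 (11.8 ± 1.06), WWTR1 (11.3 ± 1.42), LATS2 (5.98 ± 0.506) and LATS1 (3.36 ± 0.278). TEAD4 and WWTR1 were the only neighbours whose libraries overlapped. With NCD the top 3 places were unchanged, at 227 ± 9.05 for ANKRD1, 118 ± 7.81 for CCN1 and 47.3 ± 2.18 for CCN2. AMOTL2 came next at 28.6 ± 0.976, ahead of YAP1 at 17.7 ± 0.667. TEAD1 dropped from the fifth place to the last, at 2.57 ± 0.275, below LATS1 at 3.42 ± 0.579. With NCD the libraries of WWTR1 (3.69 ± 0.143) and LATS1 overlapped, and those of the other neighbours did not.

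The fold change with NCD goes with gene span across the transcriptome, so tested genes were ordered by span into 10 bins of about equal size and each member was set beside its own bin. TEAD1 (270 kb) and WWTR1 (219 kb) lie in the bin with the longest genes, where the median log2 fold change was -2.09 and 79.2% of genes were called lower. YAP1 (123 kb) lies in the next, with a median of -0.93 and 46% called lower. TEAD4 (81.3 kb), LATS2 (88.5 kb) and LATS1 (60.1 kb) share a bin with a median of -0.35. TEAD1 was thus below the median of its bin and WWTR1 above it, and both LATS genes were above theirs. The 4 short targets stood in another part of the plot. CCN1 and CCN2 both span 3.2 kb and lie in the bin with the shortest genes, whose median was 0.24 and in which 9.24% of genes were called lower. ANKRD1 (9.18 kb) had a negative log2 fold change where the median was 0.41, and AMOTL2 (19.6 kb) lay above the 0.43 of its own bin. The part of gene span in the change of any single member was not tested.

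**Figure D4:**
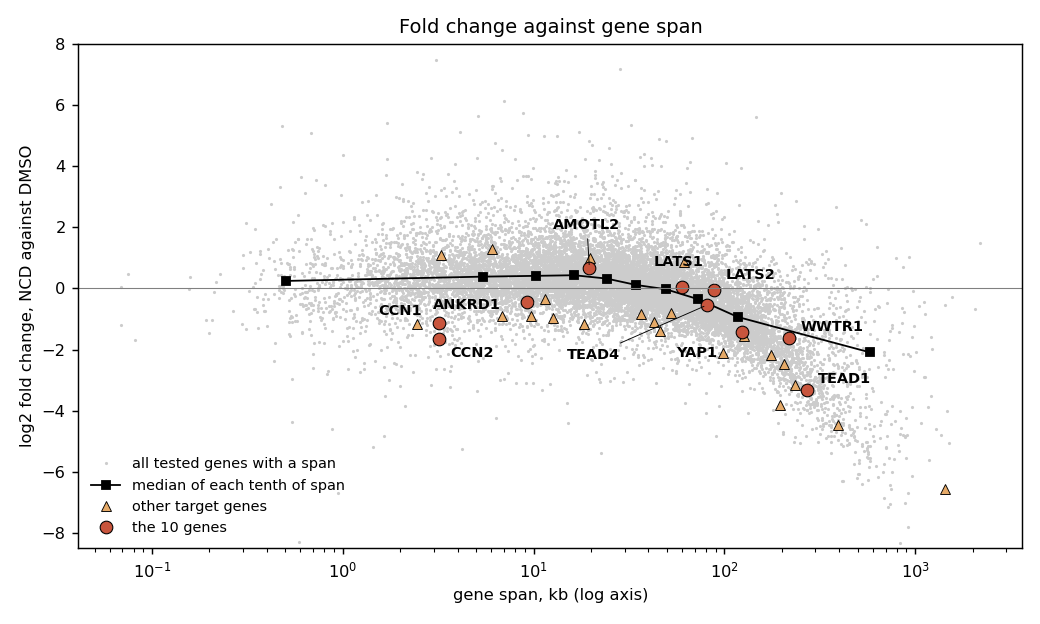
Log2 fold change (NCD against DMSO) against gene span in kb (log axis) for all tested genes with an annotated span (grey), the median of each span bin (black squares, placed at the geometric middle of the bin), the 10 members (red) and the other target genes that are reported by name (orange). TEAD1, WWTR1 and YAP1 lie on the falling right side of the cloud, and CCN1 and CCN2 lie below the black line on the left, at -1.12 and -1.67.

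The wider pathway was read from a list of 41 regulators, of which 36 could be tested. Of these 15 were lower, 5 higher and 16 were not called (55.6% called, against 31% of all tested genes), with a median log2 fold change of -0.73. In the core kinase module, STK3 fell from 36.6 ± 2.93 CPM to 1.68 ± 0.261 CPM (SD, n = 3 each; log2 fold change -4.45, edgeR adjusted p = 2.32e-08). STK4, the other kinase that activates LATS1 and LATS2, fell from 170 ± 14.6 CPM to 64.1 ± 4.51 CPM, with a log2 fold change of -1.41 (edgeR adjusted p = 6.82e-07). Their scaffold SAV1 rose, with a log2 fold change of 1.13 (edgeR adjusted p = 3.3e-07). The adaptors MOB1A and MOB1B, which bind and activate LATS kinases, were not called, at 0.08 and -0.69 on the log2 scale.

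Of 15 tested upstream inputs, 9 were lower and 0 higher, against 17.5% lower and 13.5% higher among all tested genes, and their median log2 fold change was -2.0. Of the 15, 8 lie in the bin with the longest genes and all 8 of these were lower, in a bin where 79.2% of genes were called lower and the median was -2.09. The largest falls in the list were those of TNIK (-4.57, 399 kb), STK3 (572 kb), TAOK3 (-3.37, 223 kb), a kinase that activates STK3 and STK4, and WWC2 (-3.25, 221 kb), a relative of the scaffold KIBRA. NF2 had 11.9 ± 1.02 CPM with DMSO and 6.08 ± 0.546 CPM with NCD, a log2 fold change of -0.98 ± 0.12 (SE; edgeR adjusted p = 8.89e-05), just short of the fold threshold. The largest rises were those of TEAD3, SAV1 and AJUBA (1.11, 11.5 kb), a LIM protein that restrains LATS kinases. WTIP, a relative of AJUBA, was also called higher, at 1.01, and its log2 fold change was as low as 0.88 when 1 library was left out. Of the other angiomotins, AMOTL1 had 75.5 ± 3.59 CPM with DMSO and 44.2 ± 3.4 CPM with NCD (log2 fold change -0.77, edgeR adjusted p = 2.09e-05), below the fold threshold and opposite in sign to AMOTL2. AMOT was below the filter, at 0.0949 ± 0.0648 CPM and 0.362 ± 0.273 CPM. Of the TEAD cofactors, 2 were tested and neither was called. VGLL4 (215 kb), a repressor that competes with YAP, had a log2 fold change of 0.21 (edgeR adjusted p = 0.0638). VGLL3 (115 kb) had a log2 fold change of -0.39 (edgeR adjusted p = 0.165).

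Furthermore, 23 non-member genes often used as YAP and TAZ targets were read, and all 23 were tested. Of these, 1 (PTPN14, called lower, with a log2 fold change of -2.48) also stands on the regulator list and counts in both. Among them 13 were lower, 3 higher and 7 not called (69.6% called, against 31% of all tested genes), and the median log2 fold change was -1.15. The largest falls were in long genes: RBMS3 (-6.57, 1436 kb), ASAP1 (-4.46, 392 kb), CRIM1 (-3.80, 195 kb) and DOCK5 (-3.16, 233 kb). The 3 called higher were the transcription factor gene FOXF2 (1.30, 6.03 kb), the stress gene GADD45A (1.08, 3.28 kb) and NUAK2 (1.00, 19.7 kb), a kinase that feeds back on LATS. NUAK2 lay at the fold threshold, and its log2 fold change ranged from 0.89 to 1.04 when each library was left out.

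When both lists were split at the middle of the span range, 10 of these targets lay among the 5 shorter bins, up to 29 kb. Their median log2 fold change was -0.91, against a median of 0.36 over the 7346 tested genes of these bins. In 7 of the 10 targets it was below 0, against 2118 of the 7346 genes. Of the 10, 3 were called lower (30%, against 4.71% of these genes) and 3 higher (30%, against 20.4%). The lower genes included THBS1 and FJX1, which were named after their values had been seen. THBS1, which encodes the matrix protein thrombospondin, had 293 ± 8.33 CPM with DMSO and 129 ± 3.96 CPM with NCD (SD, n = 3 each; log2 fold change -1.18, edgeR adjusted p = 1.93e-07). FJX1 had 43.9 ± 1.34 CPM and 19.8 ± 0.842 CPM, a log2 fold change of -1.15 (edgeR adjusted p = 1.22e-06). With library totals 10 targets in all were lower and 4 higher. THBS1 (-0.98) and FJX1 (-0.95) were then below the fold threshold, so the 30% called lower applies to TMM scaling. Among the 13 targets in the 5 longer bins, 10 were lower (76.9%, against 30.7% of the genes there) and 0 higher (against 6.28%). Most of these 13 lie in the bin with the longest genes and the next, where 79.2% and 46% of genes were called lower. The 9 regulators among the shorter bins had a median log2 fold change of 0.44, close to the 0.36 of all genes there. Of these 9 regulators, 2 were called higher (22.2%, against 20.4% of the genes there) and 0 lower (against 4.71%). A log2 fold change below 0 was found in 0 of 9, against 2118 of 7346 genes. Of the 27 regulators in the longer bins, 15 were lower (55.6%, against 30.7% of the genes there) and 3 higher (11.1%, against 6.28%). Most of these 27 also lie in the bins with 79.2% and 46% called lower, so the 30.7% is not matched for span. Whether either list differs from genes of like span was not tested.

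**Figure D5:**
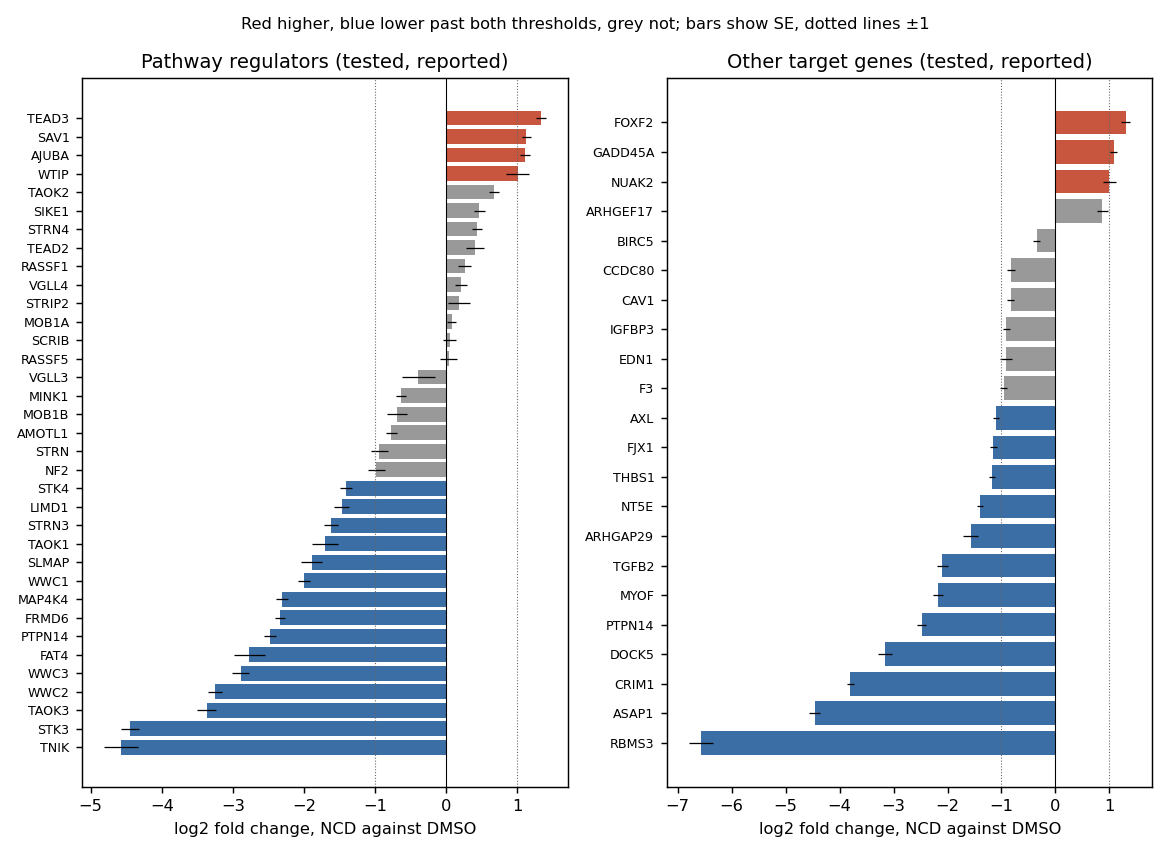
Log2 fold change (NCD against DMSO) of the tested pathway regulators (left) and other target genes (right) that are reported by name, with the standard error as thin lines. Red bars were called higher, blue bars lower and grey bars neither. Falls reach -4.57 for TNIK and -6.57 for RBMS3, while rises stop at 1.33 for TEAD3 and 1.30 for FOXF2.

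Finally, the genes closest in pattern were sought for CCN2 and for YAP1 by Pearson's correlation of log2 CPM over the 6 libraries, among the 11049 tested genes that averaged 5 CPM or more. For CCN2 they were TEX10, PRMT3 and CHCHD3 (r from 0.99978 to 0.99991), and for YAP1 they were USP32, CRY1 and SORT1 (r from 0.99993 to 0.99997). These points are 2 groups of 3 libraries, and the likeness includes the difference between the groups: 1214 genes passed r = 0.99 with CCN2 and 1568 with YAP1.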

How the data were processed

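Per the labels and the methods of the study, the authors aligned reads to GRCh38 (hg38) with HISAT2 and deposited expected counts per Ensembl gene, estimated with RSEM for each library and not normalized. Tool versions, annotation release and strandedness are not given in the sources used here. The 25 stray text lines of each file were skipped. Symbols were found for 62666 of 63241 identifiers. Spans, exonic lengths (union of exons) and coordinates are from GENCODE release 29 (GRCh38), and promoter sequences are from RefSeq (GRCh38.p14), where 7 of the 10 members matched.

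Expected counts were rounded and tested with edgeR 4.0.16 (R 4.3.3; filterByExpr, TMM, glmQLFit, glmQLFTest, group as the only term), which was first tested on simulated data. Each SE was obtained from the fold change and its F statistic (log2 fold change over root F, unsigned). CPM use unrounded counts and TMM-scaled library sizes. Log2 ratios used a pseudocount of 0.5. Libraries within a group differed by more than sampling noise (chi-square per degree of freedom at least 2.05). Named genes were the members, the 4 largest called rises and falls of each list, TEAD2, TEAD3, NF2, STK3, STK4, AMOT and AMOTL1, and the 3 genes most like CCN2 and YAP1; others are said to have been picked later. In each list 1 gene counts in the totals but is not reported here by name or drawn. MOB1A, MOB1B, VGLL3, VGLL4, WTIP and PTPN14 were added after their values were seen. Members, lists and tests were chosen with earlier results of these data known. Alternatives were DESeq2 1.42.0, limma-voom (limma 3.58.1), RLE size factors, library totals, a prior count of 2, no low-count filter, a filter of at least 10 counts throughout, a pseudocount of 5, adjusted p without a fold threshold, the longest transcript as length, omission of single libraries, and a fit blocked on replicate number.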

Additional observations from a re-analysis of the deposited data

How the results depend on the processing

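YAP1, WWTR1, TEAD1 and CCN2 were called lower under every alternative that gave a test, and CCN1 was except with library totals. TEAD4, ANKRD1 and AMOTL2 kept their sign under every alternative run. LATS1 and LATS2 lay near 0 and changed sign without being called: LATS1 was -0.04 without DMSO replicate 1, -0.03 without DMSO replicate 3, -0.13 without NCD replicate 3 and -0.03 without NCD replicates 2 and 3 together (single omissions gave -0.13 to 0.12), and LATS2 was 0.15 with library totals. The log2 ratio of LATS2 to LATS1 changed from -0.06 to 0.04 without NCD replicate 3, with single omissions giving -0.18 to 0.04. The cause was not tested. Without a fold threshold 1 member (AMOTL2) was higher and 7 lower, 10 regulators higher and 20 lower, 4 other targets higher and 19 lower, and 5393 of all tested genes higher and 5209 lower; such counts can only grow. With at least 10 counts in every library 1376 of all genes were higher, since fewer were tested. The deviations of same-numbered libraries correlated at 0.216, -0.185 and 0.0226. Differently numbered libraries were not compared, so these values cannot decide whether libraries were paired by number. With the replicate block the 5 members stayed called lower, 15 regulators were lower and 5 higher, and 13 other targets were lower and 3 higher. With library totals the median log2 fold change was -0.63 for the members, -0.53 for the regulators and -0.95 for the other targets. With the longest transcript as length, 8 of 10 members kept their rank in DMSO, and TEAD3 held 47% of the TEAD level with NCD and TEAD1 8.06%. Leaving out both NCD libraries with the odd descriptions, which leaves 1 NCD library, and the TEAD shares were chosen after seeing the data. At this depth every member had at least 347 counts in each library, so counting error is small for them, whereas AMOT, DCHS1, CRB3, VGLL1 and VGLL2 were too low to test.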
